A study of Saccharomyces cerevisiae with 14 samples.

Results

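*arp8-AA* cells were compared with *ARP8* cells 20 min after release from an α-factor block, across all transcripts of the yeast genome, and the difference was then read along the cell cycle. The 4 libraries of this comparison, 2 per genotype, were chosen by their titles out of the 14 libraries of the series. Both strains are *Saccharomyces cerevisiae* of mating type a and carry *his3delta1*, *leu2delta0* and *ura3delta0*, and the label of the *ARP8* strain also lists *met15delta0*. In *arp8-AA* the *ARP8* gene was replaced by a copy with the substitutions S65A and S233A. The serines at these positions are the sites in Arp8 that depend on the Dbf4-dependent kinase (DDK). All cells of this comparison were arrested with α-factor and released into S phase, and 20 min was taken by the study as early S. Each genotype is 1 strain (yCFK51 for *ARP8* and yPB4 for *arp8-AA*), so that a difference between the strains other than the allele cannot be told apart from the effect of the allele. The labels call the replicates biological.

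Arp8 is an actin-related subunit of INO80, a chromatin remodeler that slides and spaces nucleosomes. DDK, made of the kinase Cdc7 and its regulator Dbf4, starts replication by phosphorylating the MCM helicase at origins. α-factor is the mating pheromone that stops cells of type a in G1, and after its removal the cells pass together through a fixed order of gene expression. In late G1 the factors SBF (Swi4 with Swi6) and MBF (Mbp1 with Swi6) switch on G1 cyclins, cell wall genes and the replication machinery. Histone genes follow in S phase, and a forkhead factor with Mcm1 and Ndd1 then turns on the *CLB2* cluster on the way to mitosis. A culture that is earlier in this order has more of the transcripts that are about to fall and less of those that are about to rise. In a bulk sample, fewer cells at a stage and less RNA per cell cannot be told apart.

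The codons that set the strains apart lie in the coding sequence of *ARP8* (YOR141C, chromosome XV of build R64 from 589942 to 592587, minus strand). They are shown, with their surroundings in the reference, because the strains are defined by them. The serine codon is in capitals, and both stretches are written in the direction of the gene, at chrXV:592363-592425 and chrXV:591859-591921.
codon 65: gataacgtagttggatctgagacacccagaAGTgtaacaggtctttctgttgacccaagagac
codon 233: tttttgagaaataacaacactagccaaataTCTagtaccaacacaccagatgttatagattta
The values are counts per transcript, in which these codons cannot be seen. At 20 min *ARP8* itself reached 178 and 184 CPM in the *ARP8* replicates 1 and 2, and 206 and 130 CPM in the *arp8-AA* replicates 1 and 2. CPM is the usual count scaled to a common library size. The genotypes overlapped for *ARP8*, and the log2 fold change (*arp8-AA* over *ARP8*) was −0.13 with a standard error of 0.19.

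The 4 libraries held between 2834041 and 4571748 estimated counts. The deleted markers *LEU2*, *URA3* and *MET17* (the gene also called *MET15*) had 0 counts in all 8 libraries taken after release, *MET17* thus also in *arp8-AA*, whose label does not list its deletion. *HIS3* had 84 to 373 counts, and since *his3delta1* removes only an inner part of the gene, these check nothing. Of the genes specific to mating type α, *STE3* had 20 to 55 counts, *SAG1* 1 to 11 counts, *MFALPHA1* at most 2 and *MFALPHA2* at most 14. Replicates 1 and 2 differed in the levels of pheromone and histone genes in both genotypes. The level of 25 pheromone response genes, given as the mean of log2 CPM minus the mean over the 8 libraries, was 1.00 and −1.41 in *ARP8* replicates 1 and 2 at 20 min. In *arp8-AA* it was 0.94 and −1.04. The level of the 8 core histone genes in *ARP8* was −1.59 and 0.64 at 10 min and 0.39 and 1.15 at 20 min. The level of the SBF targets, defined below, was alike in *ARP8* at 10 min (0.04 and 0.03). Whether the replicates differed in cell cycle stage or in another way was not tested. By the histone and pheromone levels replicate 2 looked the further along of the pairs, and its *ARP8* histone level at 10 min lay above that of replicate 1 at 20 min. For this reason libraries were compared within a replicate number (a pair), with the replicate number as a block in the test. With 2 libraries per group, an exact permutation test (two-sided) cannot go below p = 0.333, so that tests rest on the spread shared by the 8 libraries of both genotypes and time points. The libraries taken 10 min after release, 2 per genotype, serve for comparison and are called 10 min below. They carry the same replicate numbers and share no library with the comparison at 20 min.

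**Figure D1:**
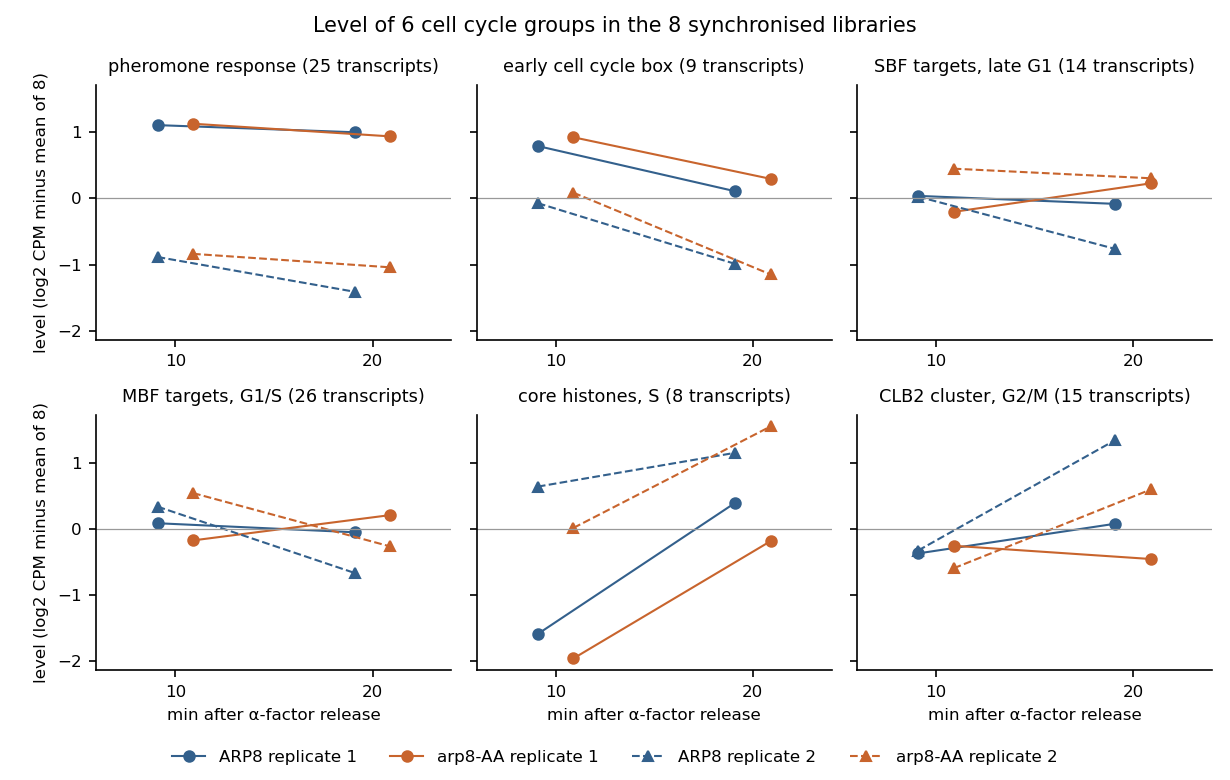
Level of 6 groups of cell cycle genes (mean over members of log2 CPM minus the mean of the 8 libraries, vertical axis) against min after release (horizontal axis), with *ARP8* in blue, *arp8-AA* in orange, replicate 1 as circles with solid lines and replicate 2 as triangles with dashed lines. At 20 min the *arp8-AA* points lie above the *ARP8* points of the same replicate for the SBF and MBF targets and below them for the *CLB2* cluster, while the core histones lie below in replicate 1 and above in replicate 2.

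The first question was which transcripts differed between the genotypes at 20 min. Of 5453 transcripts tested, 1 was higher in *arp8-AA* with an adjusted p under 0.05 (0.0183% of those tested) and 0 were lower. At an unadjusted p under 0.05, 217 were higher (3.98%) and 173 lower (3.17%), 390 in all (7.15%), by edgeR's quasi-likelihood test. DESeq2 called 4 transcripts, *HXT1* among them as lower. The genotypes did not overlap, with both *arp8-AA* libraries above both *ARP8* libraries, for 834 transcripts (15.3%), and with both below for 763 (14%). The median log2 fold change of all transcripts was 0.02, and the median standard error 0.21.

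The transcript that rose was *YRF1-6*, which encodes a helicase of the subtelomeric Y′ elements. Its locus YNL339C lies on the minus strand at the left end of chromosome XIV (371 to 6098 in R64). It reached 115 and 65.8 CPM in the *ARP8* replicates and 512 and 201 CPM in the *arp8-AA* replicates. Both *arp8-AA* libraries lay above both *ARP8* libraries. The log2 fold change was 1.90, with a standard error of 0.18 and a Benjamini-Hochberg adjusted p of 0.00414 in edgeR. At 10 min its log2 fold change was 0.76 (standard error 0.17), and the difference between the time points was not called (adjusted p = 0.962). All of its 31-mers (100%) occur in another coding sequence, so that reads of the 8 *YRF1* genes could be divided among copies in other ways. *YRF1-1*, *YRF1-5* and *YRF1-8* had the same counts in each library (187 and 58.8 CPM in *ARP8*, 244 and 93.4 CPM in *arp8-AA*). The 8 genes together had 1304 and 552 CPM in *ARP8* and 1841 and 916 CPM in *arp8-AA*, and *YRF1-6* took 8.83% and 11.9% of this sum in *ARP8* and 27.8% and 21.9% in *arp8-AA*. Summed to 1 feature, the family had a log2 fold change of 0.61 and was not called (adjusted p = 0.696). The call was also lost without *ARP8* replicate 1 (adjusted p = 0.0813) and without the replicate block (adjusted p = 0.999).

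2 transcripts followed, each with an adjusted p of 0.109. *COS12* (YGL263W, chromosome VII from 2790 to 3932), a gene of the subtelomeric COS family, reached 6.28 and 10.7 CPM in *ARP8* and 20.2 and 38.3 CPM in *arp8-AA*, a log2 fold change of 1.76 (standard error 0.26). *HXT1* (YHR094C, chromosome VIII from 290913 to 292625), a low-affinity hexose transporter made in abundant glucose, reached 129 and 181 CPM in *ARP8* and 53.8 and 42.3 CPM in *arp8-AA*, a log2 fold change of −1.70 (standard error 0.26). The genotypes overlapped for neither gene. *HXT1* was called in 4 of 13 alternatives and *COS12* in 2 of 13, with adjusted p between 9.5e-06 and 0.999 for *HXT1* and between 0.0141 and 0.999 for *COS12*. The next smallest p belonged to the Y′ transcript *YHL050C* (−1.84, adjusted p = 0.399, 90.2% of its 31-mers shared) and to *KDX1* (adjusted p = 0.572). For every other transcript named below the adjusted p was 0.694 or higher, and the values are given as differences that did not pass the test.

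The second question was whether the difference at 20 min looks like a lag in the cell cycle. The SBF targets of late G1 stood higher in *arp8-AA*. Of 16 genes on the list 14 were tested, all 14 with a positive log2 fold change, and 12 of them were higher in both pairs. Of all transcripts, 50.6% were higher in *arp8-AA* in pair 1 and 53.1% in pair 2. The share of all transcripts with the same direction in both pairs was not counted, here or for the lists below. Their median log2 fold change was 0.67, beside 0.02 for all transcripts, and the median was 0.32 in pair 1 and 1.11 in pair 2. With an unadjusted p under 0.05, 5 members were higher (beside 3.98% of all transcripts) and 0 lower. The 5 became 7 with only the 4 libraries at 20 min, where 418 of all transcripts passed in either direction. In 8 members both *arp8-AA* libraries lay above both *ARP8* libraries (beside 15.3% of all transcripts). At 10 min the median of the list was 0.09.

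*CLN2*, a G1 cyclin that commits cells to division, reached 14.9 and 10.3 CPM in *ARP8* and 24.5 and 40.3 CPM in *arp8-AA* at 20 min. Its log2 fold change was 1.26 (standard error 0.35) at 20 min and 0.08 (standard error 0.33) at 10 min. In *ARP8* cells *CLN2* stood at 29.6 and 27.6 CPM at 10 min, so that the *arp8-AA* values at 20 min lay on either side of those of *ARP8* at 10 min. *SVS1*, which encodes a cell wall and vacuolar protein, reached 21.2 and 15.1 CPM in *ARP8* and 32.9 and 91.8 CPM in *arp8-AA*, a log2 fold change of 1.56 (standard error 0.37). Its difference was largest in replicate 2. *CRH1*, a chitin transglycosylase, reached 220 and 170 CPM in *ARP8* and 284 and 369 CPM in *arp8-AA* (log2 fold change 0.70, standard error 0.23). The cyclin *PCL1* reached 55.8 and 29.4 CPM in *ARP8* and 76.0 and 65.2 CPM in *arp8-AA* (0.72, standard error 0.28). The groups did not overlap for any of these 4 genes, nor for *CSI2* (0.76), the other member with an unadjusted p under 0.05. *CLN1*, the partner cyclin of *CLN2*, gave 47.8 and 35.7 CPM against 59.3 and 60.0 CPM (0.47, standard error 0.35), a difference that was similar at 10 min (0.40). The 5 members with an unadjusted p under 0.05 became 1 without *ARP8* replicate 2, 2 without *arp8-AA* replicate 2, 3 without the block and 9 without *ARP8* replicate 1. The median stayed positive in each of these fits, at 0.25 without *ARP8* replicate 2 and 1.24 without *ARP8* replicate 1.

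The MBF targets of G1/S, which are mostly replication and repair genes, were also higher in *arp8-AA*, but by less. All 26 were tested, 25 had a positive log2 fold change and 20 were higher in both pairs. Their median was 0.30 (0.30 in pair 1 and 0.34 in pair 2) and −0.0034 at 10 min. With an unadjusted p under 0.05, 3 were higher (beside 3.98% of all transcripts) and 0 lower. The 3 became 9 with only the 4 libraries at 20 min, where 418 of all transcripts passed in either direction. Of the 26, 5 did not overlap between the genotypes, near the 15.3% of all transcripts. *MSH6*, a mismatch repair gene, reached 401 and 301 CPM in *ARP8* and 525 and 539 CPM in *arp8-AA*, a log2 fold change of 0.59 (standard error 0.20). *POL1*, the catalytic subunit of the polymerase that primes replication, reached 345 and 227 CPM against 461 and 361 CPM (0.53, standard error 0.20). Both *arp8-AA* values lay above both *ARP8* values for these genes. *RNR1*, the large subunit of ribonucleotide reductase, was the same in direction with a wider spread, at 1335 and 647 CPM against 1576 and 1337 CPM (0.56, standard error 0.34). The S phase cyclins did not separate. *CLB5* gave 116 and 66.5 CPM against 147 and 74.1 CPM (0.26, standard error 0.34), and *CLB6* gave 54.3 and 24.3 CPM against 98.5 and 18.02 CPM, higher in pair 1 and lower in pair 2. The median of the MBF list was −0.01 without *ARP8* replicate 2 and −0.06 without *arp8-AA* replicate 1, and 0.74 and 0.62 without the other *ARP8* and the other *arp8-AA* library at 20 min. The members with an unadjusted p under 0.05 numbered 0 in each of the first 2 fits, 10 and 5 in the others, and 1 without the block.

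The *CLB2* cluster, whose products drive the entry into mitosis, stood lower in *arp8-AA*. Of 16 genes 15 were tested, 14 with a negative log2 fold change, and 9 were lower in both pairs and 0 higher in both. The median was −0.67 (−0.34 in pair 1 and −0.85 in pair 2) and −0.08 at 10 min. With an unadjusted p under 0.05, 6 were lower (beside 3.17% of all transcripts) and 0 higher. Of the 15, 1 was lower in both *arp8-AA* libraries than in both *ARP8* libraries (beside 14% of all transcripts): *MYO1*, the myosin of the division ring, with 187 and 357 CPM against 170 and 172 CPM. For the others the groups overlapped, and the level of the cluster was higher in replicate 2 than in replicate 1 in both genotypes (0.08 and 1.34 in *ARP8*, −0.46 and 0.59 in *arp8-AA*). *CLB2*, the main mitotic cyclin, reached 39.4 and 142 CPM in *ARP8* and 15.3 and 70.1 CPM in *arp8-AA*, a log2 fold change of −1.09 (standard error 0.42). *CLB1*, its paralog, reached 28.8 and 183 CPM against 9.13 and 89.5 CPM (−1.16, standard error 0.40). The polo kinase *CDC5* reached 109 and 336 CPM against 65.9 and 144 CPM (−1.02, standard error 0.35). Each of these 3 genes was lower in *arp8-AA* within each pair, with the smallest difference for *CDC5* in pair 1 (−0.72). *BUD4* (−0.72, standard error 0.26), which marks the bud site, *ALK1* (−0.79, standard error 0.29), a kinase related to haspin, and the transcription factor *SWI5* (−1.24, standard error 0.52) were the other members with an unadjusted p under 0.05. Without *ARP8* replicate 2, which had the highest level of this cluster of all 8 libraries (1.34), the median was 0.05 and 0 members had an unadjusted p under 0.05. In such a fit the replicate difference of the missing library is taken from the other groups. In replicates 1 and 2 the level of the cluster was −0.37 and −0.33 in *ARP8* at 10 min. In *arp8-AA* it was −0.26 and −0.60 at 10 min and −0.46 and 0.59 at 20 min. The replicate difference was thus not the same in these groups, while the block of the main fit also takes it as the same. Pair 1, which keeps both of its libraries, had −0.34. Without *ARP8* replicate 1 the median was −1.13. Without *arp8-AA* replicate 1 it was −0.54 and again 0 members had an unadjusted p under 0.05, and without the block 0 members did.

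**Figure D2:**
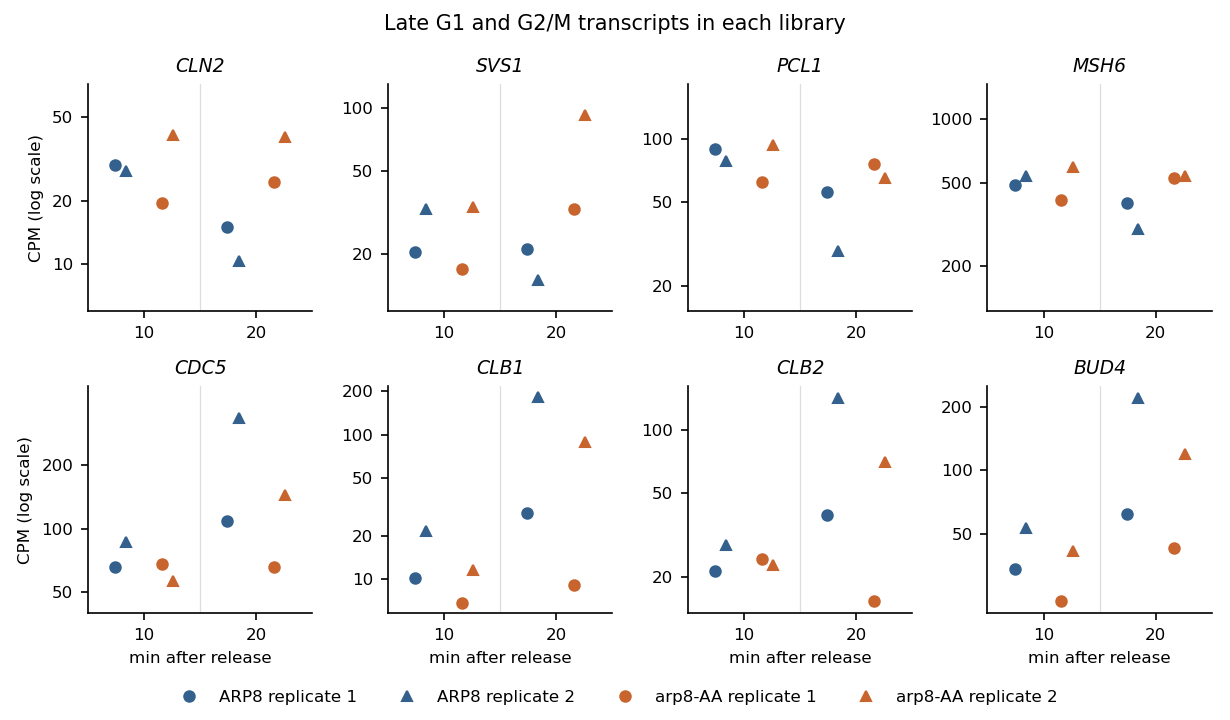
CPM (vertical axis, log scale) of 4 late G1 or G1/S transcripts (*CLN2*, *SVS1*, *PCL1*, *MSH6*) and 4 transcripts of the *CLB2* cluster (*CDC5*, *CLB1*, *CLB2*, *BUD4*) at 10 and 20 min after release (horizontal axis), with *ARP8* in blue, *arp8-AA* in orange, replicate 1 as circles and replicate 2 as triangles. At 20 min both orange points lie above both blue points in the upper row, while in the lower row each orange point lies below the blue point of the same replicate.

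Stretches of 90 bases upstream of members of these groups, picked for their number of matches, show motifs of the factors named above. Whether these matches are bound or control the genes was not tested. The motifs are in capitals: CNCGAAA (the SBF site) for *CLN2*, *SVS1* and *PCL1*, ACGCGT (the MBF site) for *MSH6* and *POL1*, and GTAAACA (a forkhead site) for *CLB1* and *BUD4*, each searched on both strands. The stretches are written 5′ to 3′ on the strand of the gene, in build R64. They lie at chrXVI:67141-67230 (*CLN2*, minus strand), chrXVI:242900-242989 (*SVS1*, minus strand), chrXIV:87554-87643 (*PCL1*, plus strand), chrIV:644003-644092 (*MSH6*, minus strand), chrXIV:429835-429924 (*POL1*, plus strand), chrVII:702936-703025 (*CLB1*, plus strand) and chrX:598476-598565 (*BUD4*, plus strand).
CLN2: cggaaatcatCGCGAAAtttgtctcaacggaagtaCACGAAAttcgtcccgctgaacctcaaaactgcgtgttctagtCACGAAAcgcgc
SVS1: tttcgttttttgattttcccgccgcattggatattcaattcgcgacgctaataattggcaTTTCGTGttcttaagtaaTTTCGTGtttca
PCL1: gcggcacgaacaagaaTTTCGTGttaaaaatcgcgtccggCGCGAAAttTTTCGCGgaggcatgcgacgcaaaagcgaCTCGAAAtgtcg
MSH6: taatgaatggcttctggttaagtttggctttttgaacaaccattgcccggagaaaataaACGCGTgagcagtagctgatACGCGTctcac
POL1: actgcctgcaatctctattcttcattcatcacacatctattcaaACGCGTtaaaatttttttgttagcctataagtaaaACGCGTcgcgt
CLB1: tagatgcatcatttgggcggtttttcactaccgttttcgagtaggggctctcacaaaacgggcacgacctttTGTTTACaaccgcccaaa
BUD4: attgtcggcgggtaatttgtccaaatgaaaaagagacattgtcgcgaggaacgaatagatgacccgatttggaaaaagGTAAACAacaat
In the 550 bases from 700 to 151 before the start codon, CNCGAAA was found for 13 of 14 SBF targets, beside 21.5% of all 5350 transcripts with such a window. ACGCGT was found for 16 of 26 MBF targets, beside 5.42% of all, and GTAAACA for 8 of 15 members of the *CLB2* cluster, beside 10.2% of all. The lists were written from what is known of these factors, so that these shares describe the lists and are no result of the comparison of genotypes.

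The core histone genes, the marker of S phase, did not follow one direction. All 8 were tested, 0 had an unadjusted p under 0.05 and 0 separated the genotypes. Their median log2 fold change was −0.16, made up of −0.64 in pair 1 and 0.21 in pair 2. *HHF1*, which encodes histone H4, reached 1201 and 2171 CPM in *ARP8* and 598 and 2269 CPM in *arp8-AA*. *HTA1*, for histone H2A, reached 1081 and 1768 CPM in *ARP8* and 621 and 1868 CPM in *arp8-AA*. The level of the group was −0.19 in *arp8-AA* replicate 1, below the 0.39 of *ARP8* replicate 1, and 1.55 in *arp8-AA* replicate 2, above the 1.15 of *ARP8* replicate 2. *HTB1*, for histone H2B, had the highest log2 fold change (0.63, standard error 0.36) and *HHF1* the lowest (−0.59, standard error 0.38). At 10 min the histone median was −0.55, with −0.39 in pair 1 and −0.74 in pair 2, while from 10 to 20 min it differed by 1.18 in *ARP8* and by 1.52 in *arp8-AA*. The sign of the median at 20 min changed to 0.43 without *ARP8* replicate 1.

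Groups of earlier and later stages differed less. Of 11 tested genes that follow Hcm1 or otherwise peak between S and G2, the forkhead factors *FKH1* (−0.41, standard error 0.17) and *FKH2* (−0.49, standard error 0.21) had an unadjusted p under 0.05, both lower (beside 3.17% of all transcripts), and the median was −0.03. The early cell cycle box genes, with the *MCM* genes of the replicative helicase, had a median of −0.11 and 0 of 9 with an unadjusted p under 0.05. These genes were lower at 20 than at 10 min in both genotypes (medians −0.84 and −1.10). The pheromone response genes had a median of 0.12 and 0 of 25 with an unadjusted p under 0.05. *FUS1*, a gene of cell fusion, reached 119 and 13.97 CPM in *ARP8* and 95.5 and 16.7 CPM in *arp8-AA*, and *FAR1*, which arrests the cycle in response to pheromone, 332 and 54.8 CPM against 300 and 49.2 CPM. The pheromone transcripts thus differed far more between the replicates than between the genotypes. Of 14 genes of M/G1 daughter cells, *PIR1*, *ASH1* and *CTS1* were higher with an unadjusted p under 0.05, beside 3.98% of all transcripts, *PIR1* and *ASH1* with under 5 CPM in all 4 libraries. The median was 0.13, and the 3 members became 1 without *ARP8* replicate 1 or *arp8-AA* replicate 2 and in DESeq2, and 0 without *ARP8* replicate 2 or without the block. *SIC1*, the inhibitor of the S phase cyclins, gave 18.2 and 13.6 CPM in *ARP8* and 17.3 and 10.5 CPM in *arp8-AA* (−0.21, standard error 0.28).

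Set beside the change from 10 to 20 min within each genotype, the late G1 lists were lower at 20 min by more in *ARP8* than in *arp8-AA* (median −0.39 against −0.03 for the SBF targets, −0.56 against −0.30 for the MBF targets). The *CLB2* cluster was higher at 20 min by more in *ARP8* (1.23 against 0.66). These medians share the libraries at 20 min with the comparison of genotypes and add no support to it. In *ARP8* 6 transcripts were called between the time points (0.11%), and at an unadjusted p under 0.05 there were 242 higher (4.44%) and 307 lower (5.63%) at 20 min. In *arp8-AA* 1 was called (0.0183%), with 257 higher (4.71%) and 287 lower (5.26%).

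The same question was put to all transcripts without lists. The difference *arp8-AA* minus *ARP8* at 20 min in one pair was set against the change of *ARP8* from 10 to 20 min in the other replicate, so that the 2 sides shared no library, and a lag would give a negative slope. Over 5453 transcripts the slope was −0.12 in pair 1 (Pearson r −0.19) and −0.11 in pair 2 (r −0.08). For comparison, the *ARP8* change of one replicate against that of the other had r = 0.20. Over the 686 tested genes of the study's cell cycle list the slopes were −0.25 (r −0.46) and −0.23 (r −0.17), with r = 0.45 between the *ARP8* changes of the replicates. At 10 min the slopes over all transcripts were −0.13 and −0.09, and over the cell cycle genes −0.02 and −0.14. These are descriptions across genes, which are not independent replicates.

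Both ends of this order were looked at in turn. Of the 100 transcripts that were most reduced in *ARP8* from 10 to 20 min in the other replicate, 78 were higher in *arp8-AA* in pair 1 and 65 in pair 2, beside 50.6% and 53.1% of all transcripts. Of the 100 that were most increased, 67 were lower in *arp8-AA* in pair 1 and 39 in pair 2. Within the cell cycle list the same counts were 85 and 72 for the transcripts most reduced, and 72 and 55 for those most increased. The end of falling transcripts was thus higher in *arp8-AA* in both pairs, whereas the end of rising transcripts was lower in pair 1 and, over all transcripts, not in pair 2. With the change of *arp8-AA* in place of that of *ARP8* the slope was −0.12 in pair 1 and −0.02 in pair 2.

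**Figure D3:**
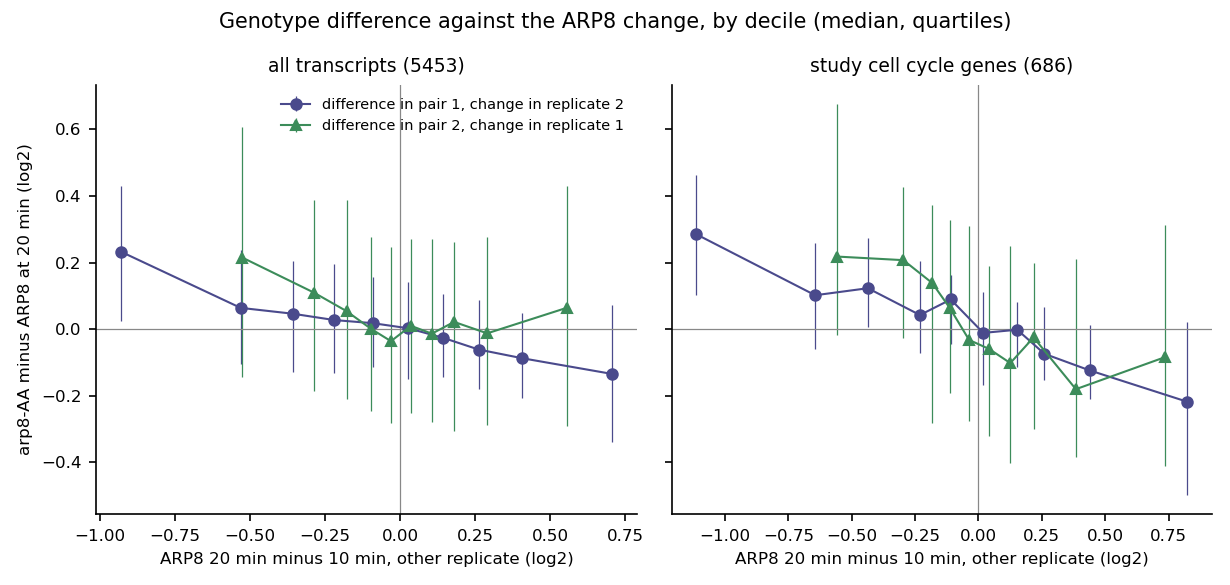
Median difference *arp8-AA* minus *ARP8* at 20 min in one pair (vertical axis, log2, with quartiles as bars, pair 1 as circles and pair 2 as triangles) for 10 equal bins of the transcripts ordered by the *ARP8* change from 10 to 20 min in the other replicate (horizontal axis, log2), for all 5453 transcripts and for the 686 cell cycle genes. In pair 1 the medians go from 0.23 in the lowest bin to −0.13 in the highest over all transcripts, and in pair 2 from 0.21 to 0.06.

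The lists below were not drawn up by cell cycle stage. Genes of the cell wall integrity pathway, which runs through the Slt2 kinase and its factor Rlm1, had a median of 0.49, 17 of 19 positive and 14 higher in both pairs. Cell wall genes are also among those switched on in late G1, and the part of stage in this group was not tested. *KDX1*, a protein kinase related to Slt2 and a target of this pathway, reached 33.3 and 7.35 CPM in *ARP8* and 61.6 and 24.6 CPM in *arp8-AA* (1.20, standard error 0.24). *PST1*, a cell wall protein, reached 13.8 and 4.41 CPM against 48.6 and 7.54 CPM (1.52, standard error 0.37), and *SED1* and *YPS3* were the others with an unadjusted p under 0.05, so that 4 members were higher and 0 lower (beside 3.98% and 3.17% of all transcripts). The level of this group was higher in replicate 1 than in replicate 2 in both genotypes, so that members overlapped between the groups although both pairs had the same sign. At 10 min the median was 0.21. Without *arp8-AA* replicate 2 the median at 20 min was 0.26, and the 4 members became 2 without *ARP8* replicate 2 and 0 without the block. General stress genes had a median of 0.41 at 20 min and 0.39 at 10 min, with 7 of 18 higher at an unadjusted p under 0.05 and 0 lower (beside 3.98% and 3.17% of all transcripts). *HSP12*, a membrane protein made in stress, reached 61.0 and 24.999 CPM in *ARP8* and 146 and 40.6 CPM in *arp8-AA* (1.02, standard error 0.26), and *GPH1*, glycogen phosphorylase, 26.6 and 111 CPM against 94.9 and 159 CPM (1.13, standard error 0.37). Without *arp8-AA* replicate 1 the median of the stress genes was 0.02 and the 7 members became 2. They became 1 without *ARP8* replicate 1, 4 without either replicate 2 library and 0 without the block.

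Genes of glucose uptake and sensing differed in both directions. Of 21 tested, 4 were higher (*MTH1*, *MIG2*, *HXK1* and *HXT8*) and 2 lower (*HXT1* and *HXT6*) at an unadjusted p under 0.05, beside 3.98% and 3.17% of all transcripts. *HXT7* had a positive log2 fold change (0.41, standard error 0.36), and how reads were divided between it and *HXT6* was not tested. The 4 that were higher became 0 without *ARP8* replicate 2 and in DESeq2, and 2 without *arp8-AA* replicate 2 and without the block. *MTH1*, a repressor of hexose transporter genes, reached 4.33 and 1.47 CPM in *ARP8* and 7.82 and 9.18 CPM in *arp8-AA* (1.40, standard error 0.52). *HXT3* gave 774 and 1568 CPM against 772 and 1006 CPM, *HXT2* 140 and 113 CPM against 138 and 233 CPM, and *HXT4* 6.71 and 7.35 CPM against 9.13 and 18.4 CPM, so that *HXT1* was the only one of *HXT1* to *HXT4* that was lower in both *arp8-AA* libraries than in both *ARP8* libraries. Within the mitochondrial genome, transcripts of the *COX1* locus and *ATP6* were lower. *COX1*, subunit 1 of cytochrome c oxidase, reached 2927 and 2101 CPM in *ARP8* and 1954 and 1297 CPM in *arp8-AA* (−0.64, standard error 0.19). *AI4*, which overlaps it and encodes an intron endonuclease, reached 576 and 518 CPM against 351 and 344 CPM (−0.65, standard error 0.16). In all, 8 of 20 mitochondrial transcripts were lower and 2 (*SCEI* and *VAR1*) higher at an unadjusted p under 0.05 (beside 3.17% and 3.98% of all transcripts), and the lower ones, apart from *ATP6*, share the *COX1* locus and its reads. The 8 became 5 without *arp8-AA* replicate 2 and 4 without the block, and the 2 became 0 without either replicate 2 library or the block. Their log2 fold changes at 10 min were of the same size (−0.82 for *COX1* and −0.89 for *AI4*), and in asynchronous cells, which share no library with this comparison, *COX1* was lower as well (−0.94, adjusted p = 0.000784 in edgeR).

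**Figure D4:**
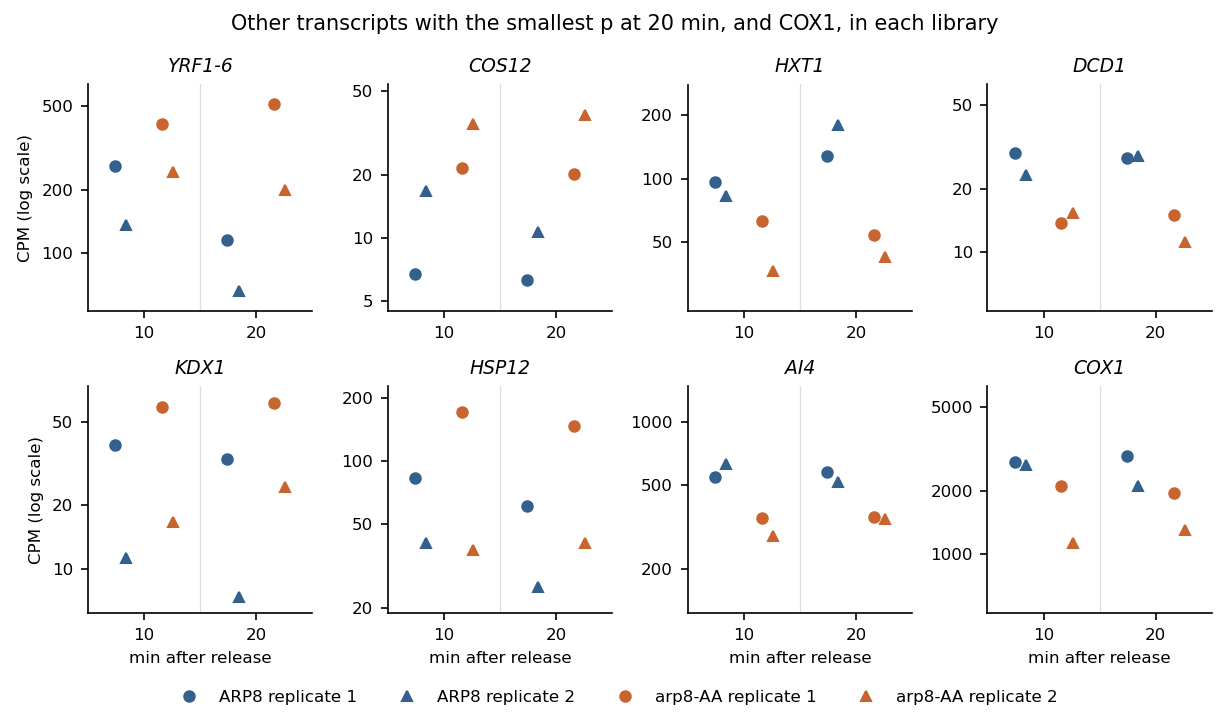
CPM (vertical axis, log scale) of *YRF1-6*, *COS12*, *HXT1*, *DCD1*, *KDX1*, *HSP12*, *AI4* and *COX1* at 10 and 20 min after release (horizontal axis), with *ARP8* in blue, *arp8-AA* in orange, replicate 1 as circles and replicate 2 as triangles. At 20 min both orange points lie on one side of both blue points for all of these but *KDX1* and *HSP12*, for which the genotypes overlap although each orange point lies above the blue point of the same replicate.

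By the rule for named genes, the transcripts with the smallest p also held single genes of metabolism. *DCD1*, a dCMP deaminase that supplies dUMP for thymidylate, reached 28.1 and 28.7 CPM in *ARP8* and 14.997 and 11.1 CPM in *arp8-AA* (−1.12, standard error 0.25). It was lower by −0.83 at 10 min and by −2.13 in asynchronous cells (adjusted p = 0.0118 in edgeR). *PUT4*, the proline permease, reached 23.8 and 6.25 CPM against 9.45 and 1.64 CPM (−1.50, standard error 0.35), and was as different at 10 min (−1.35). *URA1*, an enzyme of pyrimidine synthesis, reached 355 and 1090 CPM against 1016 and 1510 CPM (0.96, standard error 0.23), and *MDH2*, the cytosolic malate dehydrogenase, 21.9 and 97.1 CPM against 71.7 and 139 CPM (1.09, standard error 0.26). *CIT2*, the peroxisomal citrate synthase that reports the retrograde response, reached 262 and 169 CPM against 344 and 388 CPM (0.81, standard error 0.20). *FLC1* (0.66), which encodes a putative flavin carrier, and *GFA1* (0.55), which makes glucosamine phosphate for chitin, were higher in both pairs. *ECM22* (−0.62), a regulator of sterol genes, *DHR2* (−0.63), an RNA helicase of ribosome assembly, and *PSR2* (−0.67), a phosphatase of the sodium stress response, were lower in both *arp8-AA* libraries than in both *ARP8* libraries. Of 53 genes of ribosome biogenesis, 46 had a negative log2 fold change and 35 were lower in both pairs, with a median of −0.17. At 10 min the median of this list was −0.24 in pair 1 and 0.05 in pair 2. At an unadjusted p under 0.05, 4 were lower (beside 3.17% of all transcripts), *UTP18* among them with 165 and 177 CPM against 131 and 100 CPM. The 4 became 0 without *ARP8* replicate 2, 1 without *arp8-AA* replicate 2 or without the block, and 9 without *arp8-AA* replicate 1.

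The genes closest to the mutated protein and to its kinase had medians near 0. None of 15 transcripts of INO80 subunits and none of 19 of DDK and origin firing factors had an unadjusted p under 0.05 in edgeR's test, with medians of 0.03 and −0.09. The genotypes did not overlap for 4 INO80 subunits, all higher in *arp8-AA*, and for 6 of the DDK and origin firing list, 2 higher and 4 lower, beside 15.3% higher and 14% lower of all transcripts. *INO80*, the ATPase of the complex, gave 227 and 321 CPM in *ARP8* and 241 and 195 CPM in *arp8-AA*. *CDC7* gave 50.4 and 51.1 CPM against 57.1 and 40.6 CPM, and *DBF4* 44.8 and 64.7 CPM against 40.1 and 36.0 CPM, lower in both *arp8-AA* libraries (−0.48, standard error 0.27). Of 153 tested genes on the study's replication list 8 were higher and 4 lower at an unadjusted p under 0.05, near the 3.98% and 3.17% of all transcripts, with a median of 0.02. Within 20 kb of a chromosome end, where *YRF1-6* and *COS12* lie, 14 of 160 transcripts were higher (beside 3.98% of all) and 6 lower (beside 3.17% of all, a similar share) at an unadjusted p under 0.05, with a median of 0.13. Of the 8 *YRF1* genes, which share sequence, 4 were higher at this threshold. All of these 4 but *YRF1-6* had identical counts. The 14 may thus hold the same reads more than once, and an excess of separate transcripts was not tested. DNA damage genes had a median of 0.23, and 3 of 15 were higher at an unadjusted p under 0.05 (beside 3.98% of all transcripts), *DDR48* and *DUN1* among them. *DDR48*, a gene induced by DNA damage and stress, reached 359 and 244 CPM against 562 and 407 CPM (0.69, standard error 0.18).

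**Figure D5:**
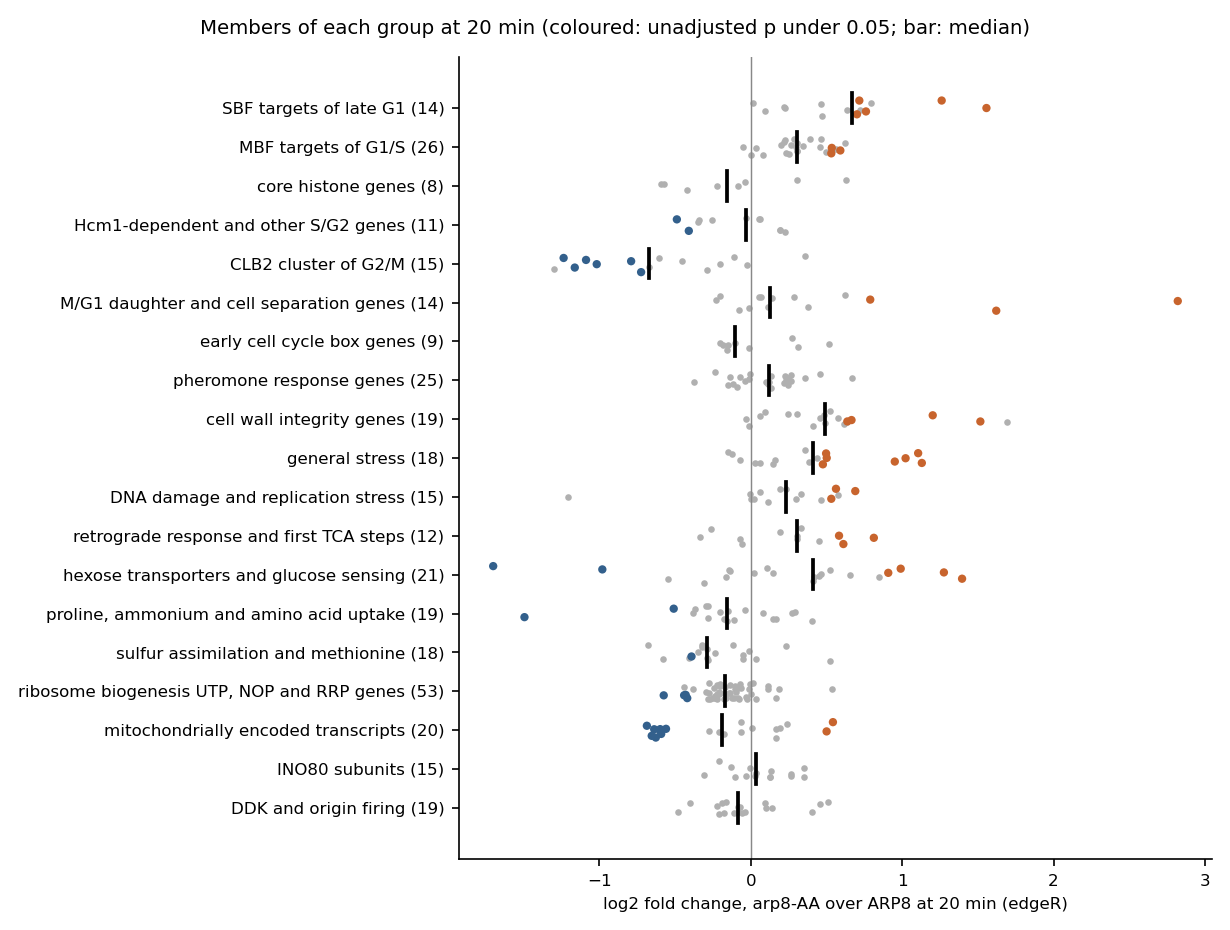
Log2 fold change of *arp8-AA* over *ARP8* at 20 min (horizontal axis, from edgeR) of each tested member of 19 groups (vertical axis, number of members in parentheses), with the group median as a black bar, members with an unadjusted p under 0.05 in orange (higher) or blue (lower) and the others in grey. The SBF targets lie to the right of 0 with a median of 0.67, and the *CLB2* cluster lies mostly to the left with a median of −0.67.

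Whether the difference between the genotypes itself changed from 10 to 20 min was tested as an interaction, for which edgeR called none (0 of 5453 transcripts) and gave 110 with an unadjusted p below 0.05 (2.02%). In the comparison at 10 min edgeR likewise called 0 and gave 154 transcripts (2.82%) below an unadjusted p of 0.05. None of the differences above is thus shown to be particular to 20 min. Among the genes named here the smallest unadjusted p of the interaction was that of *YRF1-6*, and the interaction was 1.64 for *SVS1* (standard error 0.52) and 1.18 for *CLN2* (standard error 0.48), with an adjusted p of 0.962 for each of these 3. The part of cell cycle position in any single difference was not tested, since no sample of one genotype was matched to the other by stage.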

How the data were processed

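Per the labels, total RNA of synchronised and asynchronous cells was depleted of rRNA and sequenced, and the authors quantified transcripts with kallisto 0.48 against the R64 coding and non-coding transcripts. Each deposited file gives 1 estimated count and 1 TPM value (a level per length, in which the authors' software corrects for length and depth) per transcript. The kit keeps strand, whereas the quantification is stated only with default parameters, so reads of overlapping genes could not be told apart by strand. The estimated counts were rounded to whole numbers. TPM was used only to copy the level of the named genes.

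Transcripts were filtered with filterByExpr (5453 of 6612 kept), scaled by TMM and fitted with edgeR 4.0.16 (quasi-likelihood F-test, two-sided, R 4.3.3) in 1 model of the 8 libraries taken after release, with genotype and time as 4 groups and the replicate number as a block, as the study also adjusted for the replicate. p-values were adjusted over all transcripts (Benjamini-Hochberg) and a transcript was called under 0.05. The fit pools the spread over the 4 groups. Deviations of libraries with the same replicate number in different groups correlated with r between 0.478 and 0.653, and the numbers were therefore taken as pairs. Counts of the 2 replicates of a group differed beyond sampling noise (chi-square per degree of freedom 19.8 and 28.8 at 20 min). Pair differences and levels are log2 CPM with a prior count of 2. Gene positions, the share of 31-mers found in other coding sequences and the sequences printed come from the R64 reference, in which 5929 of 6612 transcripts were found. The steps were tested on counts simulated without a replicate difference. Of 100 transcripts changed by a log2 fold change of 2, 95 were called, and of 100 changed by 1, 76 were called. Of 5208 left unchanged 21 were called, so that false calls made up more of the calls than the 0.05 aimed at. Figures were drawn with matplotlib 3.10.9.

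The members and the gene lists were chosen with earlier results of these data known. Genes were named if called, if among the 10 with the smallest p in each direction (same sign in both pairs, mean of at least 5 CPM at 20 min), if among the up to 4 members of a list with the smallest p, or if on a short list of expected genes. *CSI2*, *SWI5*, *MYO1*, *ATP6*, *SCEI*, *VAR1*, *HXT6*, *HXT7* and *HXT8* lie outside this rule and were named after their values were seen. Lists are described by counts and medians beside those of all transcripts. Alternatives were DESeq2 1.42.0, limma-voom (limma 3.58.1), other scalings and filters, no block, summed *YRF1* genes and each library left out. The asynchronous libraries (3 per genotype) were fitted apart with edgeR, a step added after seeing the data. Depth, given as estimated counts per library, limits the precision of low transcripts. 1 gene of the lists is not reported here by name.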

Additional observations from a re-analysis of the deposited data

Results flagged for a closer look

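4 genes with an unadjusted p under 0.05 at 20 min differed between the genotypes in one direction in both pairs at 20 min and in the other direction in both pairs at 10 min. These were *PSR2*, a phosphatase of the sodium stress response (log2 fold change −0.67 at 20 min and 0.13 at 10 min), *MTH1*, a repressor of hexose transporter genes (1.40 and −0.26), *RSC3*, a subunit of the RSC remodeler (−0.45 and 0.16), and *RPS11B*, a ribosomal protein gene (0.52 and −0.24). The difference between the time points was tested as an interaction in edgeR and called for 0 of the 4, with an adjusted p of 0.962 for each and an unadjusted p between 0.0103 and 0.0588.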

How the results depend on the processing

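With 2 libraries per group, single libraries set much of the outcome. The 1 transcript called became 0 without the replicate block and 0 with the *YRF1* genes summed, 2 with only the 4 libraries at 20 min, 3 with no filter beyond 1 count and 4 in DESeq2, and between 2 and 7 with a library at 20 min left out, the 7 without *arp8-AA* replicate 1. The 390 transcripts with an unadjusted p under 0.05 became 88 without the block and 241 in DESeq2, and 124 (without *ARP8* replicate 2) to 767 (without *arp8-AA* replicate 1) with a library left out. With libraries left out in turn the median log2 fold change ranged from 0.25 to 1.24 for the SBF targets, from −0.059 to 0.74 for the MBF targets and from −1.13 to 0.053 for the *CLB2* cluster. These fits break a pair and take its replicate difference from the other groups, where it was not the same. Within pair 1 the median was 0.30 for the MBF targets and −0.34 for the *CLB2* cluster, and within pair 2 it was 0.34 and −0.85. The slope in pair 1 was −0.25 over the cell cycle genes, −0.076 and −0.15 with a prior count of 0.5 and 5, and −0.20 over transcripts of at least 20 CPM. In pair 2 it was −0.019 on the change of *arp8-AA*, −0.23 over the cell cycle genes, −0.13 with a prior count of 0.5 and −0.12 over transcripts of at least 20 CPM. With all libraries of replicate 1 or 2 left out, 1 library per group remained and no test was possible, so that only the pair values were given. Of the other values, among them the single genes and member counts given above, 74 moved and 475 did not. A single gene counted as not moved if it kept its sign and stayed called or not called, whatever its size. *CDC5*, for example, went from −1.02 to −0.32 without *ARP8* replicate 2 and counted as not moved. The 475 are thus no measure of how stable the sizes were. The 6 that passed their threshold were those of *HXT1* and *COS12*, and the 2 that lost it were those of *YRF1-6*. Transcripts of a few CPM are limited by depth, and reads of the *YRF1*, COS and *COX1* locus transcripts by shared sequence.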
